A study of Mus musculus with 55 samples.

Results

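The 7 genes described here encode the 5 kainate receptor subunits (Grik1, Grik2, Grik3, Grik4 and Grik5) and the 2 auxiliary subunits of these receptors (Neto1 and Neto2). They were taken by gene symbol from a bulk RNA-seq series of the mouse ventral dentate gyrus, and all 7 were among the 18283 genes with enough reads to be tested, of 45318 gene identifiers in the tables. The tissue came from 54 male C57BL/6J mice, with no RNA pooled between mice and the tissue taken as a punch in adulthood. As juveniles the mice were assigned to standard housing (SH) or an enriched environment (EE), where they grew up, and they were then either left unstressed (control) or put through chronic social defeat stress (CSDS), in which a mouse is attacked repeatedly by a larger CD1 aggressor. Defeated mice were classed by their social interaction ratio as resilient (RES, ratio above 1) or susceptible (SUS, ratio below 1), so that the class describes behavior after defeat and was not assigned. This gave 10 SH control, 7 SH RES, 10 SH SUS, 9 EE control, 9 EE RES and 9 EE SUS mice. The libraries held from 32223034 to 49990637 read pairs, and 16760009 to 24426804 of them were counted on genes.

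Kainate receptors are glutamate-gated ion channels built as tetramers of the Grik products. The products of Grik1, Grik2 and Grik3 (GluK1, GluK2 and GluK3) can form channels on their own, whereas those of Grik4 and Grik5 (GluK4 and GluK5) bind kainate with high affinity but need a partner from the first set to reach the surface. Neto1 and Neto2 are single-pass membrane proteins that join these channels and slow their gating. In the hippocampus the receptors are best known at the mossy fiber synapse, where axons of dentate granule cells contact CA3 pyramidal cells, and in interneurons. A punch of the dentate gyrus is therefore a mixture in which several cell types use different members, and in such bulk RNA fewer cells of a type and less RNA per cell cannot be told apart.

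The promoters of 4 members are shown because Grik4 and Neto2 varied together across mice, while Grik2 varied against both and Grik3 against Neto2, as described further on. The sequences are RefSeq's for GRCm38, run 5′ to 3′ along the gene's strand from 250 bases before the start to 50 after it, and carry in capitals each GC box, that is GGGCGG or its reverse complement. Of the 7 genes, 5 had a promoter in the table used here, and Neto2 had a pair of starts, of which the one farther upstream is printed.
Grik4, chr9:42944322-42944621, minus strand: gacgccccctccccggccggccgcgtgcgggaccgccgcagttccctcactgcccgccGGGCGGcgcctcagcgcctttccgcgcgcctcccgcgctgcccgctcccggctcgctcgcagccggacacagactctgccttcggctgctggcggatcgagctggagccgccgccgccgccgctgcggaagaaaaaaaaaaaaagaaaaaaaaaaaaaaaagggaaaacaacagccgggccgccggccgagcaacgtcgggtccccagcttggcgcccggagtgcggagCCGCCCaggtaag
Neto2, chr8:85700875-85701174, minus strand: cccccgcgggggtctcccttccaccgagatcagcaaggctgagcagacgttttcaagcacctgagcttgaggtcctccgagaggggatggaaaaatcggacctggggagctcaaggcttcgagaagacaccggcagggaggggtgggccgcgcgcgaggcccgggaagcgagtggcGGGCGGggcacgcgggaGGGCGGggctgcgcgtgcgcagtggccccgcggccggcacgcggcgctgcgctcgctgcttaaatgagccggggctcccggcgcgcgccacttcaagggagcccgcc
Grik2, chr10:49788705-49789004, minus strand: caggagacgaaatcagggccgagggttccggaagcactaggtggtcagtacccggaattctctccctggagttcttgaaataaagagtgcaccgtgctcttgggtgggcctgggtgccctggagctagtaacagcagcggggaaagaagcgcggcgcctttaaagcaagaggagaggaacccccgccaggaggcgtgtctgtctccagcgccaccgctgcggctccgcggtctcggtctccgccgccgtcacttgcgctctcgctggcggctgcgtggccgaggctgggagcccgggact
Grik3, chr4:125490446-125490745, plus strand: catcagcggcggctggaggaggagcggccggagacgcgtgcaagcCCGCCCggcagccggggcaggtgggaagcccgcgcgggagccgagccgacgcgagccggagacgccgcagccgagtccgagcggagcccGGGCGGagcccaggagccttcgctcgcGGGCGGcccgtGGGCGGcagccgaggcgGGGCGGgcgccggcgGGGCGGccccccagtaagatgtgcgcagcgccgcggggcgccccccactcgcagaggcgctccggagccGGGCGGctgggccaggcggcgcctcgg

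All 4 windows were rich in CG dinucleotides, with 42 in Grik4, 36 in Neto2, 26 in Grik2 and 50 in Grik3, against a median of 7 over the 32851 promoters of the table. The second Neto2 start, at chr8:85690960-85691259, differed from these in having 0 CG dinucleotides, a GC content of 42.7%, 0 GC boxes and 6 E-boxes. The GC box was found 2 times in Grik4, 2 times in Neto2 and 7 times in Grik3, and its letters are not in the window of Grik2. It occurred in 35.7% of all promoters. The TATA box, searched as TATAAA, was held by 13.6% of all promoters and the cAMP response element, searched as TGACGTCA, by 1.8%, and neither set of letters stood in any of the 4 windows. The E-box CANNTG, which 72.3% of promoters hold, was found 1 time each in Neto2, Grik2 and Grik3 and was not among the letters of the Grik4 window. Each motif was searched on both strands.

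The genes lie on 7 chromosomes of GRCm38, and all are annotated as protein coding. Grik1 (ENSMUSG00000022935) spans chr16:87895900-88290265, Grik2 (ENSMUSG00000056073) spans chr10:49094833-49788766 and Grik3 (ENSMUSG00000001985) spans chr4:125490700-125714173. Grik4 (ENSMUSG00000032017) is at chr9:42518135-42944493 and Grik5 (ENSMUSG00000003378) at chr7:25009849-25072346. Neto1 (ENSMUSG00000050321) occupies chr18:86394952-86506718 and Neto2 (ENSMUSG00000036902) chr8:85636588-85700924. Grik2 is the longest gene, with 693.9 kb, and Grik5 the shortest, with 62.5 kb. Genes on the same strand were annotated within Grik2 (6 genes), Grik3 (2) and Grik4 (2), which strand alone does not tell apart from their hosts. Reads on the opposite strand made up at most 0.774% of the stranded reads of a member, which was the value for Neto1.

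Grik2 was the most abundant member per length, with both high-affinity subunits next. Levels between genes are given as RPKM, that is CPM (counts scaled to the library's size, with TMM factors, the trimmed mean of M values) divided by the kilobases of annotated exons. Over 54 mice, Grik2 averaged 14.3 RPKM ± 1.16 (SD), Grik4 12.8 ± 1.47 and Grik5 10.5 ± 1.06. The auxiliary subunits came next, with 9.04 ± 1.36 for Neto2 and 8.92 ± 1.42 for Neto1, and the lowest members were Grik3, with 3.75 ± 0.696, and Grik1, with 2.92 ± 0.312. Among neighbors in this order, only the step from Neto1 to Grik3, a ratio of 2.38, separated the ranges, with Neto1 above Grik3 in 54 of 54 mice. Neto2 exceeded Neto1 in only 30 mice, and Grik2 exceeded Grik4 in 38, so that on this length neither pair was ordered beyond its spread over mice. Grik4 was above Grik5 in 51 mice, Grik5 above Neto2 in 42 and Grik3 above Grik1 in 45, each with overlapping ranges. The order depended on the length used: with the longest annotated transcript in place of all exons, Grik1 (5.36 RPKM) stood above Grik3 (3.75) in 48 mice, and Grik5 (13.3) above Grik4 (13.0) in 30. On that length Grik2 (20.1) exceeded the next gene, Grik5, in 54 of 54 mice, and Neto2 (9.87) exceeded Neto1 (8.92) in 45.

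**Figure D1:**
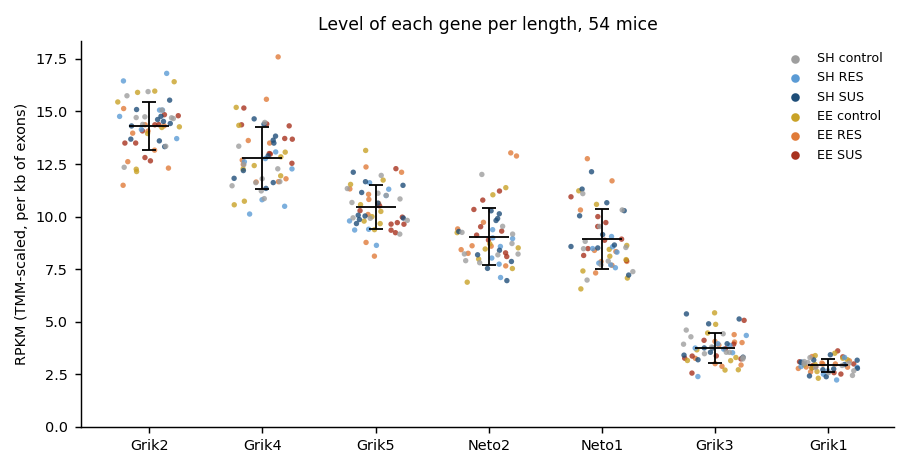
RPKM of each gene (vertical axis, from 0) in each of 54 mice, colored by group; the black dash and bar are the mean and SD over all mice. Grik2, Grik4 and Grik5 lie above 8 RPKM in every mouse, and Grik3 and Grik1 stay below 5.5.

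Summed over the 5 subunits, the level was nearly the same in every mouse, at 44.2 RPKM ± 1.72 (SD, n = 54), with a lowest value of 41.1 and a highest of 48.3. Grik2 gave 32.4% ± 2.87 of this sum, Grik4 28.9% ± 3.03, Grik5 23.6% ± 1.84, Grik3 8.46% ± 1.44 and Grik1 6.6% ± 0.721. The high-affinity subunits Grik4 and Grik5 together made up 52.6% ± 2.97, from 45.7% to 60.4%, but 47.4% ± 2.88 on the longest transcripts, from 40.7% to 54.7%. Their mean share was 50.3% ± 2.80 in SH RES mice (n = 7) and 54.4% ± 3.66 in EE RES mice (n = 9), the lowest and the highest of the 6 groups, and the ranges of these groups overlapped. Neto1 was 49.6% ± 3.08 of the summed Neto1 and Neto2 level, and 52.1% ± 2.27 in SH SUS mice, the highest group mean.

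The members differed in how much they varied between mice of the same group. Grik3 had the largest spread, with a within-group SD of 0.271 on the log2 CPM scale, which was above 97.7% of the 1241 genes of similar mean CPM. The SD was 0.218 for Neto1 (above 96.6% of 1142 genes) and 0.207 for Neto2 (above 94.8% of 1232 genes). Grik2 varied least, with 0.113, above 69.3% of 495 genes. The lowest count of any member in any mouse was 271, for Grik1.

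The main question of the design is whether housing or the outcome of defeat changed these genes. In each of 15 comparisons fitted by edgeR across 18283 genes and 54 mice, 0 of the 7 members reached an adjusted p below 0.05, and the same count was found by DESeq2 and limma voom. The test for any difference among the 6 groups called 0.35% of all genes, and at an unadjusted p below 0.05 it held 1 member, Grik4 (adjusted p = 0.32), beside 11.1% of all genes. The counts below are therefore given with the share of all genes that met the same threshold.

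Housing gave the comparisons with the most calls among all genes. Mice shared cages within a housing and no label gives the cage, so that housing and cage cannot be told apart here. Averaged over phenotype, EE against SH called 2.42% of all genes and 0 of 7 members, and 2 members, Grik4 and Grik2, had an unadjusted p below 0.05, beside 17.6% of all genes. Grik4, which encodes the high-affinity subunit GluK4, ran in SH mice from 64.7 through a median of 69.9 to 86.3 CPM in controls, from 60.3 through 73.2 to 78.0 in RES and from 67.6 through 78.7 to 87.3 in SUS. In EE mice it ran from 63.0 through 74.1 to 90.6 CPM in controls, from 69.4 through 75.7 to 104.9 in RES and from 74.7 through 81.8 to 90.4 in SUS. Each EE median was above the SH median of the same phenotype, and all ranges overlapped. The log2 difference of EE minus SH was 0.11 ± 0.040 (SE; 95% interval 0.03 to 0.19; adjusted p = 0.114), or 8.07% on the linear scale.

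Grik2, which encodes the widely expressed low-affinity subunit GluK2, leaned the other way. Its CPM in SH mice ran from 163.5 through 194.8 to 211.2 in controls, from 181.6 through 199.6 to 222.7 in RES and from 176.5 through 191.8 to 205.8 in SUS. The EE values were 160.8, 189.0 and 217.4 CPM (lowest, median and highest) in controls, 152.2, 185.0 and 200.5 in RES and 167.6, 186.5 and 196.7 in SUS. Each EE median was below that of the same phenotype in SH, again with overlapping ranges. The log2 difference was -0.07 ± 0.030 (95% interval -0.13 to -0.01; adjusted p = 0.165). The other 5 members had intervals that included 0, and the widest bound of any member was 0.21 log2 units, for Grik3. Over the 7 members the median absolute log2 difference was 0.07, and over all genes 0.04.

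The housing difference was tested within each phenotype as well. Among RES mice, EE against SH called 0.273% of all genes and 0 members, and the same 2 members passed an unadjusted p below 0.05, beside 16% of all genes. Grik4 differed by 0.19 ± 0.073 (95% interval 0.04 to 0.34; adjusted p = 0.174) and Grik2 by -0.17 ± 0.055 (95% interval -0.28 to -0.06; adjusted p = 0.12). Neto2 was 0.20 ± 0.101 higher in EE RES mice, with an interval from -0.01 to 0.40 (adjusted p = 0.329). Among control mice the comparison called 0.00547% of genes, and among SUS mice also 0.00547%, and no member passed the unadjusted threshold, which 5.02% and 7.36% of all genes met. In control mice the largest member difference was 0.06, for Grik4, with an interval from -0.08 to 0.19.

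Marker lists also differed between these groups. The mean z-score of 6 CA3 pyramidal markers (Bok, Iyd, Nectin3, Prss35, Cdh24 and Cpne4) was -0.25 in SH RES and 0.33 in EE RES mice, and their summed level ran from 279.6 to 334.3 CPM in the first group and from 261.7 to 441.3 in the second. That of 6 dentate granule markers (Prox1, Dsp, Plk5, Tdo2, Stxbp6 and Il16) was 0.30 in SH RES and -0.54 in EE RES mice, with summed levels from 516.3 to 629.0 and from 386.8 to 568.4 CPM. From SH RES to EE RES mice the score also went from -0.79 to 0.24 for oligodendrocytes, from 0.52 to -0.28 for hilar mossy cells and from -0.40 to 0.36 for endothelium. In control mice, where the interval of Grik4 for EE minus SH included 0 (-0.08 to 0.19), the CA3 score was -0.07 in SH and -0.58 in EE. With the scores of the CA3, thalamus and choroid plexus lists as covariates, the averaged EE minus SH difference of Grik4 was 0.09 and its adjusted p was 0.0416, so that 1 member was called. The same fit called 599 of all 18283 genes, against 442 without the covariates. Ttr, a choroid plexus transcript, exceeded 10 CPM in 11 mice (2 SH control, 2 SH SUS, 2 EE control, 2 EE RES and 3 EE SUS). Without them the averaged difference was 0.08 for Grik4 and -0.07 for Grik2, and the smallest adjusted p of any member was 0.295. The difference of Neto1, 0.01 over all mice, was then -0.04. Among RES mice, EE minus SH without them was 0.09 for Grik4, -0.14 for Grik2 and 0.04 for Neto2. For Neto1 it was 0.0039, against 0.15 over all mice, and 0 of 18240 genes were called. EE RES mice 3 and 8, with CA3 scores of 2.18 and 2.13, had the highest Grik4, Neto1 and Neto2 levels of their group. The part of the granule, mossy, oligodendrocyte and endothelial markers in the housing differences was not tested.

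**Figure D2:**
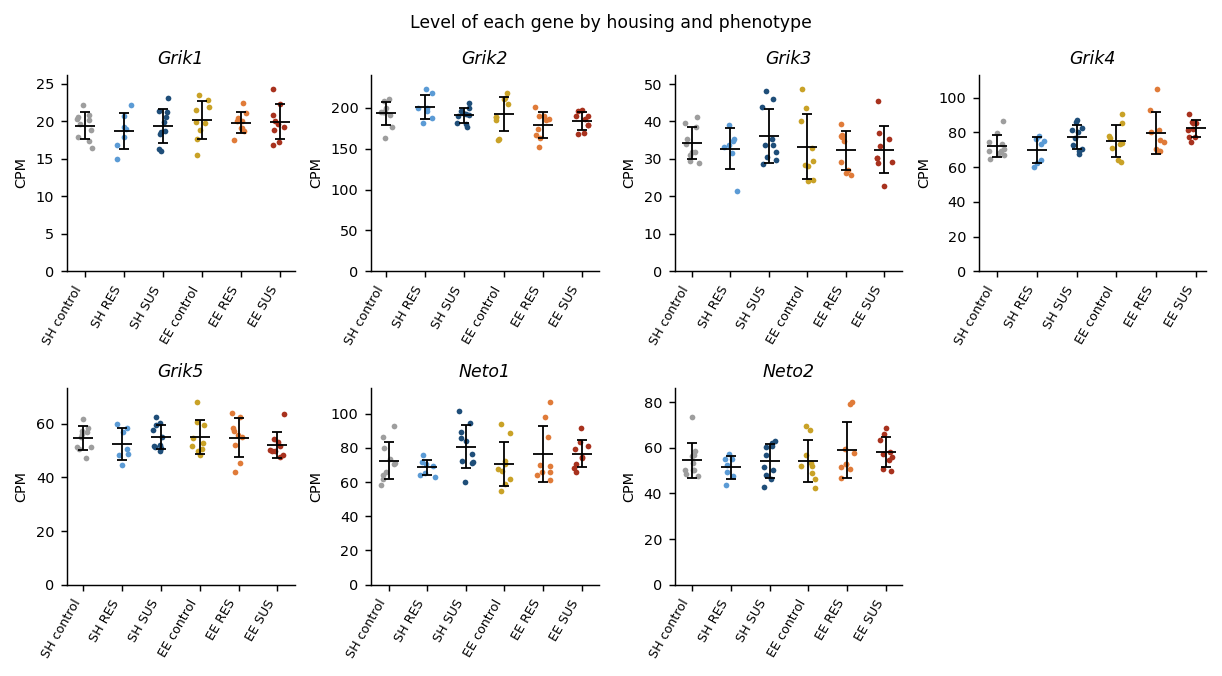
CPM of each gene (vertical axes, from 0) by housing and phenotype, 1 point per mouse, with the mean and SD of each group in black. The groups overlap for all 7 genes; the median of Grik4 is higher and that of Grik2 lower in each EE group than in the SH group of the same phenotype.

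Susceptibility was compared with resilience within each housing, the contrast the study itself made. In SH, the comparison of SUS with RES mice called 0% of all genes, and 2 members had an unadjusted p below 0.05, beside 4.88% of all genes. The first was Neto1, the auxiliary subunit found at mossy fiber synapses onto CA3. Its CPM ran from 58.3 through 71.0 to 92.7 in SH controls, from 63.2 through 69.4 to 75.6 in SH RES and from 60.3 through 80.1 to 101.3 in SH SUS mice. The SH RES mice were the tightest of the 3 groups and lay wholly within the range of the SH SUS mice. The difference was 0.23 ± 0.104 (95% interval 0.02 to 0.44; adjusted p = 0.934), or 17.6% on the linear scale. Grik4, whose values are given above, differed by 0.15 ± 0.072 (95% interval 0.0027 to 0.29; adjusted p = 0.934). Higher fitted levels in SUS were found for 6 members, Grik2 being the exception with -0.07 ± 0.054 (95% interval -0.18 to 0.03). The median absolute log2 difference was 0.07 over the members and 0.06 over all genes, and the signed medians were 0.07 and 0.0029.

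In EE the same comparison called 0% of all genes, and 0 members passed the unadjusted threshold, beside 3.52% of all genes. Neto1 ran from 54.8 through 67.8 to 93.8 CPM in EE controls, from 61.1 through 69.6 to 106.5 in EE RES and from 66.1 through 74.6 to 91.4 in EE SUS mice. Its SUS minus RES difference was 0.0047 ± 0.099 (95% interval -0.19 to 0.20), and here the RES mice spanned the wider range. The difference between the housing conditions in this contrast was tested as an interaction, which was -0.23 ± 0.144 for Neto1 (95% interval -0.52 to 0.06; adjusted p = 0.977). Over all genes the interaction called 0%, and 4.84% had an unadjusted p below 0.05, with 0 of 7 members. Averaged over housing, SUS against RES called 0% of genes, with 0 members among the 3.67% at the unadjusted threshold. By the study's own criterion (limma voom, a fold change over 1.3 together with p below 0.05, unadjusted), 0 of 7 members met it in SH, where 1.11% of 17991 genes did, and 0 in EE, where 1.03% did. The replicate numbers in the study's methods do not match the mice of the labels, so the set of mice used here may differ from the study's.

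Marker lists also differed between the SH groups, with a mean CA3 score of -0.25 in SH RES and 0.10 in SH SUS mice and a mean hilar mossy cell score of 0.52 and -0.20. With the CA3, thalamus and choroid plexus scores as covariates, 0 members had an unadjusted p below 0.05 in SUS against RES in SH, beside 703 of 18283 genes. Neto1 then differed by 0.13 and Grik4 by 0.09. Without the 11 mice with Ttr above 10 CPM the count was also 0, beside 728 of 18240 genes, with 0.18 for Neto1 and 0.10 for Grik4. Averaged over housing, however, the same 43 mice gave 2 members at the unadjusted threshold, beside 775 of 18240 genes. These were Neto1 (0.14) and Grik4 (0.10), each with an adjusted p of 0.983. Oligodendrocyte markers stood at -0.79 in SH RES and -0.33 in SH SUS mice, a list that was not among the covariates and whose part in the result was not tested.

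For defeat itself the intervals of all 7 members included 0. Defeated against unstressed mice, averaged over housing, called 0.0438% of all genes and 0 members, with 0 members among the 4.81% at the unadjusted threshold. The largest differences were 0.08 ± 0.060 for Neto1 (95% interval -0.05 to 0.20) and 0.07 ± 0.042 for Grik4 (95% interval -0.02 to 0.15). Grik1, the subunit of many interneurons, differed by -0.03 ± 0.044. Within SH, SUS against control called 0.0328% of genes and RES against control 0%, and no member was among the 2.78% and 3.51% at the unadjusted threshold. Within EE, SUS against control called 0%, with 0 members among the 7.9% at the unadjusted threshold. RES against control in EE called 0% and had 1 member, Grik2, among the 7.91%, with a difference of -0.10 ± 0.052 (95% interval -0.21 to -0.0013; adjusted p = 0.63). No member was at this threshold under DESeq2, limma voom, DESeq2 size factors, a filter of 1 CPM, unstranded counts, the marker covariates, the groups compared alone or without the Ttr mice. The interaction of defeat and housing called 0% of all genes, and 0 members stood among the 6.47% at the unadjusted threshold.

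**Figure D3:**
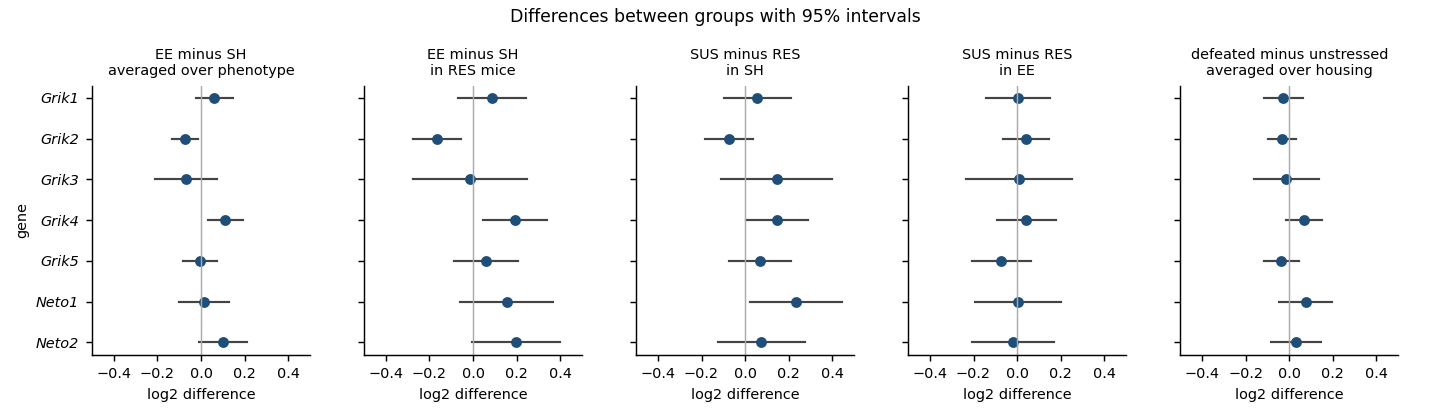
Log2 differences (horizontal axes) of the 7 genes in 5 comparisons from the edgeR fit, as points with 95% intervals. The intervals of Grik4 and Grik2 lie on opposite sides of 0 for EE minus SH, averaged and in RES mice, and none of the adjusted p-values was below 0.05.

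The other members had the following levels. Neto2, the second auxiliary subunit, ran in SH from 47.8 through 51.9 to 73.6 CPM in controls, from 43.5 through 52.6 to 57.5 in RES and from 42.6 through 54.2 to 63.0 in SUS mice. In EE it ran from 42.2 through 52.2 to 69.7 CPM in controls, from 46.9 through 52.8 to 79.9 in RES and from 49.6 through 57.1 to 68.7 in SUS. Its highest 2 mice were both EE RES mice, and its group medians ran from 51.9 CPM in SH control to 57.1 in EE SUS mice. Grik3, which encodes the low-affinity subunit GluK3, had group medians from 29.6 CPM in EE control to 34.9 in EE RES mice and single mice from 21.4 to 48.6 CPM. The latter extremes came from an SH RES and an EE control mouse, so that the spread within groups exceeded that between their medians. Grik5, which encodes the high-affinity subunit GluK5, had group medians from 50.2 CPM in EE SUS to 55.9 in EE RES mice and single mice from 42.0 to 68.0 CPM. Grik1 had medians from 19.0 CPM in SH RES to 20.0 in EE RES mice and single mice from 14.96 to 24.3 CPM, the narrowest range in CPM of the 7 genes.

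The members differed more between mice than between groups. With group means removed, log2 CPM of the 7 genes were correlated over 54 mice, and 12 of the 21 pairs had an adjusted permutation p below 0.05 (100000 resamples within groups, two-sided, Benjamini-Hochberg over 21 pairs), of which 6 were positive and 6 negative. The same 12 pairs passed by Spearman's rho. Grik4, Neto1 and Neto2 rose and dropped together from mouse to mouse. Neto1 and Neto2 had r = 0.678 and rho = 0.623 (adjusted permutation p = 0.000105 and 0.00021), and r was 0.609 without the 2 farthest mice, 0.597 within SH and 0.73 within EE. Grik4 and Neto1 had r = 0.674 and rho = 0.607 (adjusted permutation p = 0.000105 and 0.00021), with 0.608 without the 2 farthest mice, 0.643 in SH and 0.694 in EE. Grik4 and Neto2 had r = 0.62 and rho = 0.57 (adjusted permutation p = 0.00021 and 0.000367), with 0.53 without the 2 farthest mice, 0.567 in SH and 0.656 in EE.

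Grik3 formed a second pair with Grik5 and varied against the auxiliary subunits. For Grik3 and Grik5, r was 0.487 and rho 0.431 (adjusted permutation p = 0.00154 and 0.00525), with 0.439 without the 2 farthest mice, 0.622 in SH and 0.4 in EE. For Grik3 and Neto2, r was -0.562 and rho -0.584 (adjusted permutation p = 0.000315 and 0.00035), with -0.588 without the 2 farthest mice, -0.525 in SH and -0.586 in EE. For Grik3 and Neto1, r was -0.477 and rho -0.472 (adjusted permutation p = 0.00155 and 0.00262), with -0.482 without the 2 farthest mice, -0.469 in SH and -0.482 in EE. Thus the level of the GluK3 gene tended to be lower in mice with higher levels of the auxiliary subunit genes.

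Grik2 varied against Grik4 and, less closely, against both Neto genes. For Grik2 and Grik4, r was -0.518 and rho -0.494 (adjusted permutation p = 0.00151 and 0.00178), with -0.486 without the 2 farthest mice, -0.622 in SH and -0.456 in EE. Grik2 had r = -0.399 with Neto1 (rho = -0.355; adjusted permutation p = 0.0167 and 0.0295) and r = -0.338 with Neto2 (rho = -0.346; adjusted permutation p = 0.0447 and 0.0302), and without the 2 farthest mice these were -0.351 and -0.4. Within SH and EE they were -0.317 and -0.45 with Neto1 and -0.499 and -0.245 with Neto2. Grik1 rose with Neto1 (r = 0.446, rho = 0.446; adjusted permutation p = 0.00155 and 0.00262) and Neto2 (r = 0.436, rho = 0.487; adjusted permutation p = 0.00229 and 0.00164), and without the 2 farthest mice r was 0.491 and 0.477. In SH these were 0.37 and 0.191, in EE 0.516 and 0.641. The last pair, Grik1 and Grik3, had r = -0.362 and rho = -0.336 (adjusted permutation p = 0.0306 and 0.0352), which moved to -0.254 without the 2 farthest mice and was -0.191 in SH and -0.51 in EE. The other 9 pairs had r from -0.292 to 0.175.

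The same mice differed in the levels of cell type markers, and the members followed these lists. Of 98 relations between the 7 genes and 14 lists, 43 had an adjusted permutation p below 0.05 (21 positive and 22 negative), and 39 of these passed by Spearman's rho as well. The CA3 list had r = 0.791 with Neto2 (rho = 0.718), 0.742 with Grik4 (rho = 0.709) and 0.735 with Neto1 (rho = 0.706), each with an adjusted permutation p of 0.000163 for r and 0.000196 for rho. Without the 2 farthest mice these were 0.732, 0.688 and 0.684. Within SH they were 0.745, 0.622 and 0.516, and within EE 0.82, 0.823 and 0.882. Grik3 had r = -0.508 with the CA3 list (rho = -0.576; adjusted permutation p = 0.000719 and 0.000327), -0.558 without the 2 farthest mice, -0.523 in SH and -0.498 in EE.

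The dentate granule list was related to 6 members, each with the opposite sign to its r with the CA3 list. Grik3 had r = 0.567 with it (rho = 0.547; adjusted permutation p = 0.00035 and 0.000871), 0.5 without the 2 farthest mice, 0.582 in SH and 0.556 in EE. Grik2 had r = 0.495 (rho = 0.383; adjusted permutation p = 0.00209 and 0.0189), 0.447 without the 2 farthest mice, 0.346 in SH and 0.59 in EE. Against it varied Neto1 (r = -0.645, rho = -0.588; adjusted permutation p = 0.000218 and 0.00056), Grik1 (r = -0.556, rho = -0.521; adjusted permutation p = 0.000218 and 0.000882), Neto2 (r = -0.491, rho = -0.445; adjusted permutation p = 0.00209 and 0.00625) and Grik4 (r = -0.459, rho = -0.369; adjusted permutation p = 0.00403 and 0.0252). Without the 2 farthest mice these 4 values of r were -0.587, -0.49, -0.44 and -0.346. Within SH they were -0.618, -0.453, -0.356 and -0.477, and within EE -0.664, -0.65, -0.581 and -0.446. Grik1 is the member of these 6 that did not pass with the CA3 list, where its r was 0.215 (rho = 0.216; adjusted permutation p = 0.189 and 0.221).

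Several other lists were related to more than 1 member. GABA interneuron markers rose with Neto1 (r = 0.518, rho = 0.512; adjusted permutation p = 0.00119 and 0.00219), Neto2 (r = 0.46, rho = 0.486; adjusted permutation p = 0.00468 and 0.00329), Grik1 (r = 0.397, rho = 0.359; adjusted permutation p = 0.015 and 0.0252) and Grik4 (r = 0.386, rho = 0.361; adjusted permutation p = 0.0177 and 0.0252) and ran against Grik2 (r = -0.598, rho = -0.555; adjusted permutation p = 0.000218 and 0.00098). Without the 2 farthest mice these were 0.442, 0.445, 0.322, 0.332 and -0.565, in SH 0.484, 0.452, 0.415, 0.455 and -0.404, and in EE 0.54, 0.466, 0.398, 0.349 and -0.699. Grik2 was thus the only member of the 5 with a negative sign.

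The hilar mossy cell list held Calb2, Drd2, Csf2rb2, Calcrl and Nmb, each with equal weight in the score. Of these, Drd2, Csf2rb2 and Nmb had low medians of 1.46, 1.8 and 2.45 CPM. Hilar mossy cell markers ran with Grik2 (r = 0.529, rho = 0.435; adjusted permutation p = 0.00104 and 0.00894) and Grik3 (r = 0.394, rho = 0.403; adjusted permutation p = 0.015 and 0.0146). They ran against Grik4 (r = -0.64, rho = -0.53; adjusted permutation p = 0.000163 and 0.00098), Neto2 (r = -0.593, rho = -0.465; adjusted permutation p = 0.00035 and 0.00426) and Neto1, where rho did not pass (r = -0.534, rho = -0.327; adjusted permutation p = 0.00119 and 0.0594). Without the 2 farthest mice these 5 values were 0.464, 0.441, -0.56, -0.522 and -0.434, in SH 0.639, 0.418, -0.466, -0.502 and -0.362, and in EE 0.458, 0.378, -0.776, -0.663 and -0.667. Oligodendrocyte markers rose with Neto2 (r = 0.648, rho = 0.623; adjusted permutation p = 0.000163 and 0.000196), with 0.617 without the 2 farthest mice, 0.664 in SH and 0.638 in EE. They also rose with Neto1 (r = 0.567, rho = 0.556; adjusted permutation p = 0.000327 and 0.000857), with 0.525, 0.535 and 0.591 in the same order. Further oligodendrocyte relations that passed were positive for Grik4 (r = 0.422) and Grik1 (r = 0.37, where rho did not pass). Those with Grik3 (r = -0.492) and Grik2 (r = -0.38) were negative. Markers of immature neurons rose with Grik2 (r = 0.595, rho = 0.605; adjusted permutation p = 0.000163 and 0.000196), with 0.605 without the 2 farthest mice, 0.7 in SH and 0.535 in EE. They ran against Neto2 (r = -0.449), Grik4 (r = -0.369) and Neto1 (r = -0.305, where rho did not pass). Choroid plexus markers rose with Neto1 (r = 0.573), Grik4 (r = 0.555) and Neto2 (r = 0.486). They ran against Grik2 (r = -0.485) and Grik3 (r = -0.313, where rho did not pass). Without the mice with Ttr above 10 CPM, no choroid plexus relation passed. CA1 pyramidal markers ran against Grik2 alone (r = -0.526, rho = -0.491; adjusted permutation p = 0.00119 and 0.00288). Thalamus (r = 0.373) and red cell markers (r = 0.352) rose with Grik1. Grik2 also ran against the oligodendrocyte precursor (r = -0.355) and CA3 lists (r = -0.357), and Grik4 against microglia (r = -0.379). Without the Ttr mice, the relations with CA1 (-0.508), thalamus (0.423) and red cells (0.461) passed.

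Grik5 followed the fewest lists, with 2 of 14, both glial: r was -0.379 with astrocyte markers (rho = -0.384; adjusted permutation p = 0.0252 and 0.0193) and -0.352 with microglia markers (rho = -0.358; adjusted permutation p = 0.0275 and 0.0252). Without the 2 farthest mice these were -0.407 and -0.332, in SH -0.329 and -0.264, and in EE -0.411 and -0.43. All points share the library and its normalization, and the lists correlate with each other, so that the relations are not independent.

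**Figure D4:**
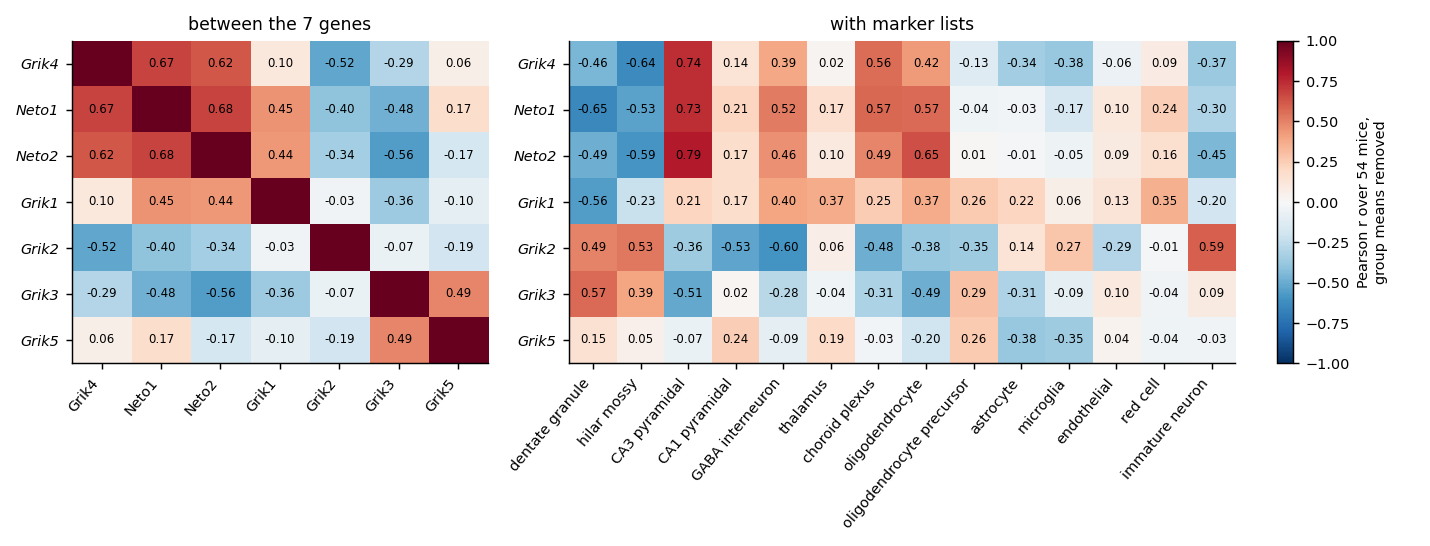
Pearson r over 54 mice of group-centered log2 CPM between the 7 genes (left) and between each gene and the mean z-score of 14 marker lists (right), red for positive and blue for negative values. Grik4, Neto1 and Neto2 share a block of r from 0.62 to 0.68 and the highest values with the CA3 list, from 0.73 to 0.79.

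**Figure D5:**
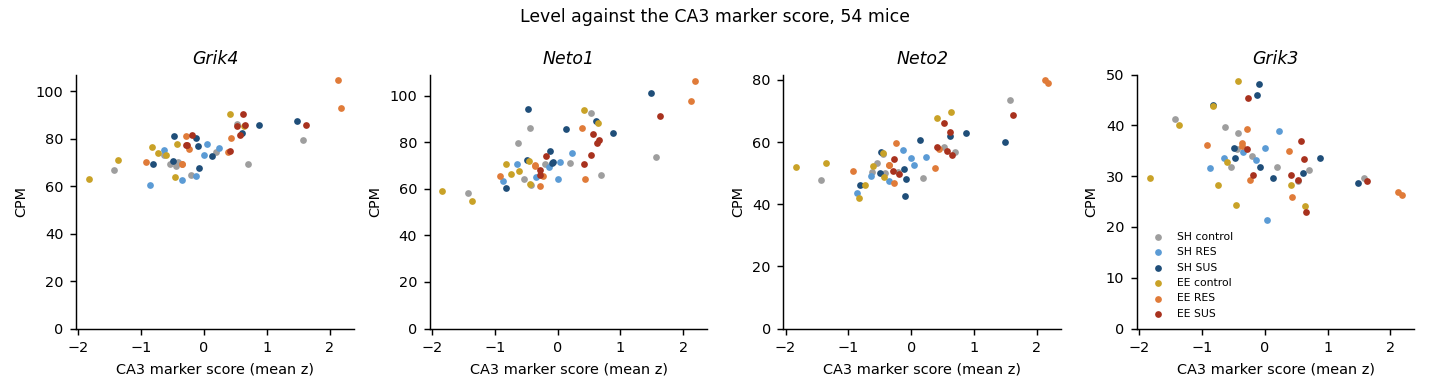
CPM of Grik4, Neto1, Neto2 and Grik3 (vertical axes, from 0) against the CA3 marker score of the same mouse (horizontal axes, mean z-score, groups not centered), colored by group. The first 3 genes climb with the score and Grik3 falls with it, and mice of all 6 groups lie along the same cloud.

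When the CA3, thalamus and choroid plexus scores were removed from each gene before correlating, 2 of the 21 pairs passed: Grik3 with Grik5, with r = 0.534 (adjusted permutation p = 0.0021), and Grik1 with Neto2, with r = 0.484 (adjusted permutation p = 0.00945). The values of the CA3-related trio then were 0.224 for Grik4 and Neto1, 0.041 for Grik4 and Neto2 and 0.206 for Neto1 and Neto2. Without the 11 mice with Ttr above 10 CPM, 5 pairs passed over 43 mice, 4 of them among the 12 above. These 4 were Grik3 with Grik5 (r = 0.577), Grik3 with Neto2 (r = -0.515), Neto1 with Neto2 (r = 0.495) and Grik4 with Neto1 (r = 0.461), and the fifth was Grik5 with Neto2 (r = -0.393). Of the marker relations, 16 passed over the same 43 mice, all of them among the 43 above, and those of the CA3 list with Neto2, Grik4 and Neto1 were 0.639, 0.569 and 0.517. Neto2 with the oligodendrocyte list (0.617) and Grik2 with the immature neuron list (0.568) passed as well. Relations that no longer passed were those of the granule list with Grik2 (0.372), Grik4 (-0.269) and Neto2 (-0.415), and those of the mossy list with all 5 members it had passed with, among them Grik2 (0.371) and Grik4 (-0.445). Neither did CA3 with Grik3 (-0.394), GABA with Grik4 (0.277), oligodendrocyte with Neto1 (0.387) or astrocyte with Grik5 (-0.39). Without these mice Grik3 with Neto1 also missed the threshold (r = -0.344; adjusted permutation p = 0.0963).

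The 3 genes most like each member over the 54 mice, by Pearson r of the group-centered values, differed between members except for Kcnq5. Neto1 and Grik4 shared Kcnq5, a potassium channel gene, with r = 0.88 and 0.824. Neto1 was most like Camk4 (0.882), a calcium-dependent kinase gene, and also followed Cntnap2 (0.867). Grik4 was most like Ap2a2 (0.838), an endocytic adaptor gene, and also followed Prkca (0.82), which encodes protein kinase C alpha. Neto2 was most like Psd3 (0.838), Neurod6 (0.837), a transcription factor gene of hippocampal pyramidal cells, and Lpl (0.83). Grik3 went with Agap1 (0.885), Tub (0.87) and Sipa1l2 (0.855). Grik5 had the closest single match, with Fry (0.901), followed by Lmtk3 (0.891) and Hectd4 (0.885). Grik2 went with Lrp1b (0.852), Hecw1 (0.838) and 2900064K03Rik (0.827), and Grik1 had the loosest matches, with Rims2 (0.679), Rbms3 (0.662) and Fam149a (0.661). No member was among the 3 genes most like another member.

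Genes known to handle or organize these receptors were read from a list of 20, covering scaffolds, traffic, ubiquitin and SUMO pathways, cadherin, mossy fiber organizers and RNA editing, of which 19 were matched and tested. In the averaged EE minus SH comparison 1 of 19 was called, beside 2.42% of all genes, and in the other 14 comparisons 0. The called gene was Kif17, which encodes a kinesin that carries glutamate receptors along dendrites. Its group medians were 15.1, 16.8 and 17.0 CPM in SH control, RES and SUS mice and 17.5, 19.3 and 18.8 CPM in the EE groups in the same order. Kif17 was higher in EE by 0.16 ± 0.043 (95% interval 0.07 to 0.25; adjusted p = 0.0334). The call ended with no low-count filter (0.16, adjusted p = 0.0524) and without the mice with Ttr above 10 CPM (0.11, adjusted p = 0.268). Leaving out single mice gave adjusted p-values from 0.000534 to 0.0619, and 6 of the 54 fits were above 0.05, each without 1 of EE RES mouse 8, EE SUS mouse 1, EE control mouse 9, SH RES mouse 1, SH RES mouse 3 and SH SUS mouse 8. Adarb1, which encodes the enzyme that edits glutamate receptor transcripts, had a median of 205.9 CPM in EE control, 221.8 in EE RES and 269.2 in EE SUS mice. Its SUS minus control difference in EE was 0.40 ± 0.106 (95% interval 0.19 to 0.62), with an adjusted p of 0.184. Cdh2, which encodes N-cadherin, had an averaged EE minus SH difference of 0.04 ± 0.015 (adjusted p = 0.12).

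The identity of the tissue was checked by its markers. The granule cell gene Prox1 ranged from 79.7 to 210.2 CPM, the desmosomal granule cell gene Dsp from 65.9 to 166.8, the glutamatergic neuron gene Slc17a7 from 528.0 to 848.6 and the interneuron gene Gad1 from 281.1 to 379.0. The thalamic marker Tcf7l2 ranged from 1.24 to 24.6 CPM and Ttr from 0 to 872.3 with a median of 0.305, and the choroid plexus markers Folr1, Clic6 and Kcnj13 were also at 0 in some mice. Of the other thalamic markers, Prkcd ranged from 10.6 to 153.7 CPM and Rora from 61.0 to 278.6. The CA1 marker Fibcd1 ranged from 10.2 to 129.9 CPM. The CA3 marker Cpne4 had a median of 142.3 CPM, and Prox1 one of 143.8. EE control mouse 9 had 2 libraries, whose log2 values correlated at 0.998 over genes. The second is labeled only as a repeat, and the label does not say what was repeated. Both were treated as runs of the same mouse and summed.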

How the data were processed

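Bulk RNA was measured in ventral dentate gyrus punches of 54 mice (55 libraries). The authors made stranded total RNA libraries and mapped quality-filtered read pairs to the GRCm38 build; STAR and Picard are named in the submitters' processing notes, and their versions are not given in the sources used here. The deposited values are raw read-pair counts per gene in the layout of STAR gene counts, although the methods name featureCounts. Reverse-strand counts were used, rows that name no gene were left out (47.1% to 54.2% of read pairs were not on genes), and names, coordinates and exon lengths came from GENCODE M21. Nothing in the labels gives a batch. The labels give 1 sample per mouse, apart from EE control mouse 9, whose libraries were summed, so p-values measure the spread between mice. The mice shared cages, EE mice in larger groups than SH mice, and no label gives the cage. Housing and cage can therefore not be told apart in the housing comparisons.

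Genes were kept by filterByExpr (minimum count 10), TMM-scaled and tested with edgeR 4.0.16 (R 4.3.3) and its quasi-likelihood test (glmQLFit, 6 groups in 1 fit), with Benjamini-Hochberg adjustment over all genes tested and a threshold of 0.05. DESeq2 1.42.0 and limma 3.58.1 voom were alternatives. Log2 CPM used a prior count of 2. Intervals are 95% intervals of the fit. Marker scores are mean z-scores of fixed lists. The fit was tested on simulated data. The named genes were the 7 members, the 3 genes with the highest Pearson r for each, partner genes called in any comparison, those with the smallest p over 6 groups, and defining markers. Alternatives covered normalization, test, filter, strand, single mice, the replicate number as a block, the second library of EE control mouse 9 and marker covariates. Removal of marker scores before correlating, leaving out mice by Ttr, and further settings for the partner genes were chosen after seeing the data. The members and lists were chosen with earlier results of these data known.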

Additional observations from a re-analysis of the deposited data

Results flagged for a closer look

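Among the 42 combinations of member and group, 3 held 1 mouse far from the others of its group by Dixon's gap test, of which chance alone flags about 1 in 20. Grik3 was at 21.43 CPM in SH RES mouse 5, with the next mouse at 31.6 CPM. Grik5 was at 63.46 CPM in EE SUS mouse 8, with the next at 54.31 CPM. Neto2 was at 73.58 CPM in SH control mouse 10, with the next at 58.45 CPM.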

How the results depend on the processing

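No member was called under the other normalizations, tests, filters, strand settings or with any 1 mouse left out (0 in every such fit). With the CA3, thalamus and choroid plexus scores as covariates, 1 member was called in EE minus SH averaged over phenotype, Grik4, at 0.09 and an adjusted p of 0.0416. Of all 18283 genes, 599 were called in that fit and 442 without the covariates. Signs under these covariates were read only for EE minus SH, averaged and in RES mice, and for SUS minus RES in SH. The other comparisons read were RES minus control in EE and defeated minus unstressed averaged over housing. Under these covariates the sign turned for Neto1 in EE minus SH averaged (-0.0279), Neto2 in SUS minus RES in SH (-0.00631) and Grik3 in EE minus SH in RES mice (0.0765). It also turned for RES minus control in EE in Grik3 (0.104, and 0.00134 with limma voom), Grik4 (-0.021), Neto1 (-0.0545) and Neto2 (-0.0713), and for defeated minus unstressed in Grik3 (0.0601), Neto1 (-0.00678) and Neto2 (-0.0588). None of these differences passed the test, and the cause was not tested.

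Leaving out 1 mouse at a time turned the sign in 37 of 1890 values from the same comparisons, all in differences near 0. EE minus SH averaged ran from -0.0195 to 0.00878 for Grik5 and from -0.011 to 0.0298 for Neto1, and EE minus SH in RES mice from -0.0991 to 0.0308 for Grik3. RES minus control in EE ran from -0.0645 to 0.0048 for Grik1, from -0.089 to 0.0477 for Grik3 and from -0.0416 to 0.0318 for Grik5, and defeated minus unstressed from -0.0379 to 0.0305 for Grik3.

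Partner genes called numbered 1 with DESeq2 in the test of any difference (0 in edgeR). In EE minus SH averaged, where edgeR called 1 (Kif17), they numbered 0 with no low-count filter, 0 without the mice with Ttr above 10 CPM and 2 with the replicate number as a block. With this replicate block 0 members were called in any comparison. The labels do not say whether the numbers pair the mice. Deviations of the 126 same-numbered pairs from different groups had a mean r of 0.0304, and 32 were over 0.1. Those of the 1086 pairs with different numbers had a mean r of -0.0035, and 175 were over 0.1. Among all genes, the block fit called 581 in EE minus SH averaged (442 without the block). In EE minus SH in RES mice it called 228 (50 without the block). Correlations between members that passed dropped from 12 to 2 with the 3 marker scores removed and to 5 without the mice with Ttr above 10 CPM, and those with marker lists from 43 to 16 without these mice, where Grik3 with choroid plexus turned to 0.0609. RPKM computed on the longest transcript were 5.36 for Grik1, 20.1 for Grik2 and 13.3 for Grik5, which puts Grik1 above Grik3 and Grik5 above Grik4. Without the mice with Ttr above 10 CPM the sign turned in 13 of the 98 member differences, none with an unadjusted p below 0.05, the largest being Neto2 in RES minus control in EE (0.12 over all mice, -0.0032 without them). That fit also has fewer samples.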
